A study of Mus musculus with 24 samples.

Results

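Co-cultures built on bone-marrow-derived macrophages (BMDMs) without Tmem175 were compared with co-cultures built on WT BMDMs, both in the presence of tumour antigen and added interleukin-1β (IL-1β). The 6 libraries were picked by their titles out of 24: 3 of KO_Ag_IL1b (Tmem175-/- BMDMs) and 3 of WT_Ag_IL1b (WT BMDMs). By the labels both groups also held splenic lymphocytes of tumour-bearing mice, antigen prepared from the tumour line B16-F10-OVA (a mouse melanoma line with the egg protein ovalbumin) and IL-1β at 500 pg/ml. The other groups, again 3 libraries each, had no antigen (KO_none and WT_none), antigen alone (KO_Ag and WT_Ag) or antigen with IL-18 at 500 pg/ml (KO_Ag_IL18 and WT_Ag_IL18). The titles name Tmem175 for all 3 knockout libraries, whereas their genotype field names other Tmem genes with consecutive numbers, so the titles were followed. The labels give neither the genotype of the lymphocytes, nor whether both groups drew on the same lymphocytes, nor whether the 3 replicates were separate mice or wells. The p-values therefore measure only the spread between libraries of a group, which may be technical. In the main fit that spread was estimated over all 24 libraries.

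IL-1β is made by macrophages as a precursor that caspase-1 cleaves in the inflammasome, and it acts through the IL-1 receptor and the adaptor MyD88 on the transcription factor NF-κB, which switches on cytokine and chemokine genes. IL-1α uses the same receptor, and the secreted antagonist made from Il1rn blocks it. Tmem175 encodes a cation channel of the lysosomal membrane that passes potassium and protons and takes part in setting lysosomal pH.

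The 6 libraries held 19588219 to 24898552 counts each, and 14099 of 55487 listed genes had enough counts to be tested. Levels are given as CPM (counts scaled to a common library size, not divided by transcript length, so they are compared between groups and not between genes) and differences as log2 fold change of KO_Ag_IL1b over WT_Ag_IL1b ± SE. A gene was called at a Benjamini-Hochberg adjusted p under 0.05 from edgeR's quasi-likelihood test. The first principal component held 77.7% of the variance of the 6 libraries and separated the genotypes. On the second component, which held 11.1%, replicate 2 of each genotype lay apart from the other libraries of its group, on the same side. It stood at -9.56 in KO, against 8.12 and 2.37, and at -5.8 in WT, against 2.9 and 1.96. The macrophage marker Adgre1 (F4/80) was detected in both groups, at 4610 ± 129 CPM in KO and 4650 ± 97.7 CPM in WT (SD, n = 3 each). The T cell receptor subunit gene Cd3e stood at 1.48 ± 0.272 CPM in KO and 1.19 ± 0.108 CPM in WT.

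Tmem175 transcripts were reduced but not lost. They stood at 8.18, 9.24 and 8.45 CPM in the KO libraries, against 15.5, 16 and 15.9 CPM in the WT libraries (log2 fold change -0.87 ± 0.0823, adjusted p 6.04e-09), so that the groups did not overlap. Its direct neighbours on the chromosome, Gak and Dgkq, differed by 0.01 each on the log2 scale and were not called (adjusted p 0.854 and 0.942). Gene counts do not show which part of the Tmem175 transcript remains or which cells carried it.

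In all, 1941 genes were called between the genotypes, 13.8% of those tested, with 1018 higher (7.22%) and 923 lower (6.55%) in KO cultures. The median size of a called change was 0.39 on the log2 scale (1.31-fold). Changes of at least 2-fold made up 272 of the higher and 258 of the lower genes. Immunoglobulin genes supplied 178 of the higher calls. The median of all tested genes was 0.0043, which is the value to hold the list medians below against. In the same way, counts of higher and lower list members are to be held against 7.22% and 6.55%, and counts in either direction against 13.8%. The 3 libraries of each genotype did not overlap in 31.6% of tested genes, with KO above in 16.1% and below in 15.5%. In bulk RNA, fewer cells of a type and less RNA per cell cannot be told apart, which applies to every comparison that follows.

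**Figure D1:**
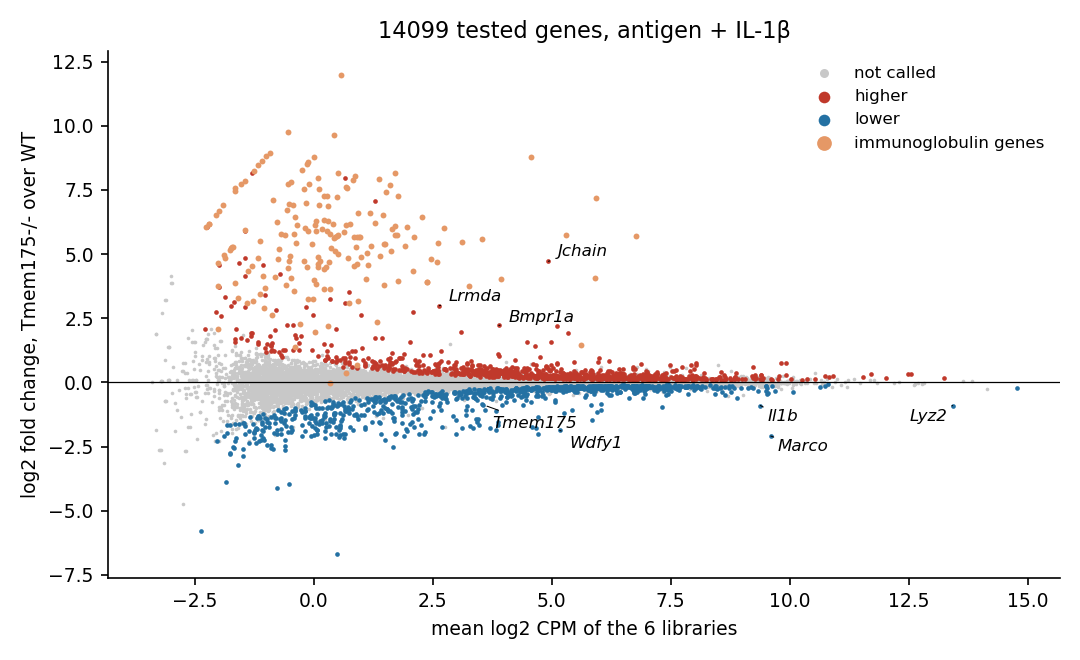
Log2 fold change of Tmem175-/- over WT (vertical axis) against the mean log2 CPM of the 6 libraries with antigen and IL-1β (horizontal axis), 1 point per tested gene, coloured by call, with immunoglobulin genes set apart. Most immunoglobulin genes lie well above 0, with a median of 5.66, Jchain lies at 4.72, and Marco, Lyz2, Il1b and Tmem175 lie below 0.

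Transcripts of IL-1α and IL-1β themselves were lower in KO cultures, while those of their receptor antagonist were higher. Il1b stood at 535, 426 and 509 CPM in the KO libraries, against 1010, 845 and 894 CPM in the WT libraries. All KO values lay below all WT values, with a log2 fold change of -0.90 ± 0.192 (adjusted p 0.00395), although DESeq2's Wald test gave the same change an adjusted p of 0.118. Il1a fell to 44.6, 40.5 and 43.4 CPM in KO, against 65.4, 64.6 and 59.8 CPM in WT (-0.56 ± 0.0583, adjusted p 3.38e-08). Il1f9, the gene of IL-36γ, a relative of IL-1 made by epithelia and myeloid cells, moved the other way, with 6.97, 5.3 and 6.08 CPM in KO and 3.41, 3.3 and 3.55 CPM in WT (0.84 ± 0.135, adjusted p 4.85e-05). Il18, the fourth ligand with enough counts, was level at 24.6 ± 2.65 CPM in KO and 24.7 ± 3.14 CPM in WT. Il33, Il1f6 and Il1f10 had 2, 1 and 0 counts at most in any of the 6 libraries and were not tested.

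Il1rn, the receptor antagonist, stood at 220, 209 and 221 CPM in the KO libraries, against 167, 157 and 151 CPM in the WT libraries. Every KO library was above every WT library (0.45 ± 0.111, adjusted p 0.0102). Il18bp, which encodes the soluble IL-18 antagonist, did not pass the test (225 ± 6.5 CPM in KO and 206 ± 12.7 CPM in WT). Of 6 receptor genes 1 was called, Il1rl1, the IL-33 receptor (1.28 ± 0.414, adjusted p 0.0367), and that call was lost when KO replicate 1 (adjusted p 0.19) or WT replicate 1, 2 or 3 (0.0927, 0.0854 and 0.0999) was left out. The signalling receptor Il1r1 had 19.8 ± 4.49 CPM in KO and 23.3 ± 2.16 CPM in WT, its partner Il1rap 10.8 ± 0.301 and 12 ± 0.934 CPM, and the decoy Il1r2 2.51 ± 0.689 and 2.84 ± 0.104 CPM. None of these 3 receptors passed (adjusted p 0.44, 0.256 and 0.677). Between receptor and NF-κB, 12 genes were tested, of which the adaptor Myd88 was higher by 0.14 and the TAK1-binding protein gene Tab2 lower by a log2 fold change of -0.10. The Myd88 call was lost without KO replicate 2 or 3 (adjusted p 0.0696 and 0.142) or WT replicate 1 or 3 (0.198 and 0.119). The Tab2 call was lost without any 1 of the 6 libraries (0.0626 to 0.177) and with no filter (0.18).

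Of 14 inflammasome and pyroptosis genes 1 was called, the flagellin sensor Naip5, with a log2 fold change of -0.18 ± 0.0447 (adjusted p 0.00483). Over all tested genes 13.8% were called. Casp1, the protease that cleaves IL-1β, stood at 183 ± 2.32 CPM in KO and 184 ± 2.06 CPM in WT. The sensor Nlrp3 stood at 89 ± 2.28 CPM in KO and 102 ± 1.97 CPM in WT, without overlap but short of the threshold (-0.20 ± 0.103, adjusted p 0.248). In a fit of the 6 libraries alone it passed as lower (0.0015).

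Several secreted inflammatory mediators and NF-κB pathway genes were lower in KO cultures. Since many of these are textbook NF-κB targets, the promoters of 4 that fell are shown with their matches to a κB-type motif, the letters GGGA and TTCC with NN (any base) between them, searched on both strands in the 250 bases before the start site, after the results were known. Sequences are from RefSeq (GRCm38.p6), printed 5′ to 3′ on the gene's own strand, with the match in capitals.
Il6 (chr5:30012864-30013113, plus strand): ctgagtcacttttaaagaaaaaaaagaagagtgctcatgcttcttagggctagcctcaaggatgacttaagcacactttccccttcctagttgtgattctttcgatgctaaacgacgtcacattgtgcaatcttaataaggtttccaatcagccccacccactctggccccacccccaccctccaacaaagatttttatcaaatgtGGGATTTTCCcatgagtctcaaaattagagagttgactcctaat
Cxcl1 (chr5:90890995-90891244, plus strand): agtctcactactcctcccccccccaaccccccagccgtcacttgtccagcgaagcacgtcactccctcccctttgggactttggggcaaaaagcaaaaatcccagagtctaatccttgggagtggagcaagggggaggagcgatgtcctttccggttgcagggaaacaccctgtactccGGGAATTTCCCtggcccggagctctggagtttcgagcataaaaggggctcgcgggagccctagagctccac
Csf1 (chr3:107760470-107760719, minus strand): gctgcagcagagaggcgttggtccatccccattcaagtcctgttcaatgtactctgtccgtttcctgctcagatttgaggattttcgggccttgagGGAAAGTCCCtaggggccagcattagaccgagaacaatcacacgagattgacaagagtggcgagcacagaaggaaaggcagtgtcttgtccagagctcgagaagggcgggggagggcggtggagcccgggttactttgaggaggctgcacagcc
Nfkbia (chr12:55492648-55492897, minus strand): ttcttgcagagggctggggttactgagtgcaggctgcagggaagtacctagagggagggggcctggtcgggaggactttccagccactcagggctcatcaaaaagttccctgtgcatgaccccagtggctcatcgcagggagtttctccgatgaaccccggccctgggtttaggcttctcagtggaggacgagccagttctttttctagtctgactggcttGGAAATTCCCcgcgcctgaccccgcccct
Such a match was found in 1.21% of 32851 promoter windows in the table and in 1.53% of the 10209 tested genes with a window. It was present in 8 of 53 tested genes of 6 lists of IL-1, NF-κB, cytokine, chemokine and acute phase genes (15.1%), and in 5 of the 18 of these that were lower in KO (27.8%). By list, the matches were in 4 of 9 CXC chemokine, 2 of 9 cytokine and 2 of 13 NF-κB genes, and in 0 of 4 IL-1 ligand, 0 of 6 CC chemokine and 0 of 12 acute phase genes. Among all tested genes it was found in 1.87% of the lower and in 0.908% of the higher ones. The 6 lists hold many textbook NF-κB targets, so a share above that of all tested genes could follow from their choice alone. A match describes the letters in the window and does not show binding, and why these genes were lower was not tested.

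Of 15 cytokine genes 6 were lower, none was higher, and the median was -0.25. Il6 stood at 3.72, 1.51 and 3.19 CPM in KO, against 7.47, 5.95 and 6.39 CPM in WT (-1.23 ± 0.239, adjusted p 0.00101). Il12b, the subunit shared by IL-12 and IL-23, stood at 2.7, 1.31 and 1.85 CPM in KO, against 5.11, 5.22 and 4.97 CPM in WT (-1.37 ± 0.2, adjusted p 1.1e-05). KO replicate 2 was the lowest library for both, and neither gene overlapped between the groups. Lif, a cytokine of the IL-6 family, was 1.94-fold lower, and Csf1, the growth factor that keeps macrophages alive, was 1.70-fold lower at 13.9, 9.77 and 14.1 CPM in KO and 22.1, 19.6 and 22.7 CPM in WT. Il12a and Il15 were also lower, by log2 fold changes of -0.62 and -0.25, but Il12a missed the threshold in a fit of the 6 libraries alone (adjusted p 0.126), and Il15 lost its call without KO replicate 1 (0.106) or WT replicate 1 or 2 (0.0505 and 0.128). Tnf did not pass, at 49.2 ± 7.24 CPM in KO and 63.3 ± 5.37 CPM in WT (-0.36 ± 0.139, adjusted p 0.108), but DESeq2 called it lower (0.0423). Ifng was level, at 3.27 ± 1.1 CPM in KO and 3.39 ± 0.446 CPM in WT.

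Of 16 NF-κB subunit and feedback genes 5 were lower and 1 higher, with a median of -0.10. The changes were small. The subunit genes Nfkb2 and Rel were lower by log2 fold changes of -0.17 and -0.22, and the feedback inhibitors Nfkbia (IκBα) and Tnfaip3 (A20) by -0.33 and -0.30. Nfkbia stood at 114, 102 and 111 CPM in KO, against 147, 132 and 130 CPM in WT, and Tnfaip3 at 75.9, 71.6 and 74.9 CPM in KO, against 95.8, 92.9 and 85.5 CPM in WT. Both were lower in every KO library than in any WT library, with adjusted p of 0.00774 and 7.47e-05. The subunit gene Nfkb1 did not pass (135 ± 5.57 CPM in KO and 140 ± 1.75 CPM in WT).

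Chemokine genes went both ways. Ccl22, which draws cells with the receptor CCR4, stood at 7.02, 5.06 and 6.64 CPM in KO, against 20.1, 20.9 and 17.5 CPM in WT (-1.64 ± 0.146, adjusted p 1.67e-08). Cxcl1, a neutrophil attractant, stood at 7.67, 6.32 and 6.54 CPM in KO, against 17, 11.5 and 14.8 CPM in WT (-1.07 ± 0.122, adjusted p 1.84e-07). Ccl3, a macrophage inflammatory protein, was 1.32-fold lower. In the other direction, Ccl6 reached 1040, 1270 and 1200 CPM in KO, against 616, 738 and 725 CPM in WT (0.75 ± 0.137, adjusted p 0.0011). Ccl8, Ccl9 and Cxcl14 were higher as well, by log2 fold changes of 0.95, 0.28 and 0.76. None of these 7 genes overlapped between the groups. Of 10 CC chemokine genes tested 4 were higher and 2 lower, and of 11 CXC chemokine genes 2 were higher and 1 lower. Ccl2 and Ccl5, which recruit monocytes and T cells, did not pass (adjusted p 0.643 and 0.249), although Ccl5 was called lower in the 6 libraries alone (0.000175).

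**Figure D2:**
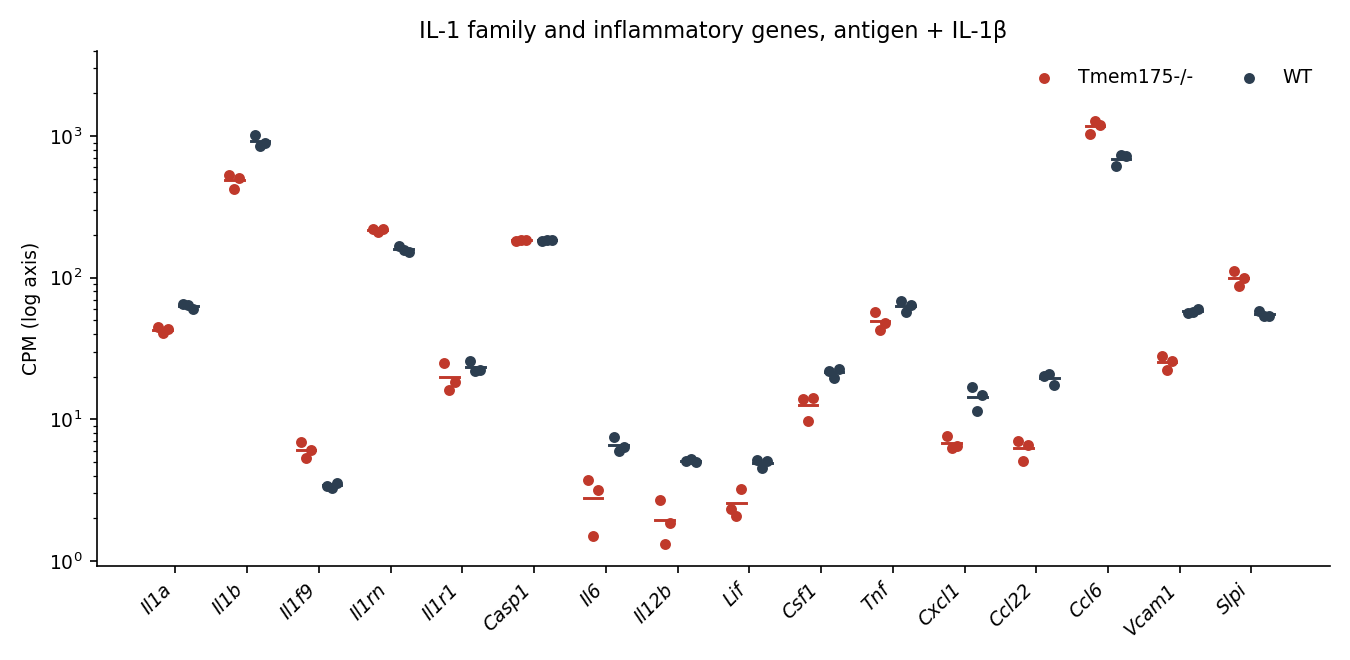
CPM on a log axis for 16 genes of the IL-1 family, cytokines, chemokines and secreted proteins in the 3 Tmem175-/- and the 3 WT libraries with antigen and IL-1β, points for libraries and bars for means. Il1a, Il1b, Il6, Il12b, Lif, Csf1, Cxcl1, Ccl22 and Vcam1 sit lower in Tmem175-/-, while Il1f9, Il1rn, Ccl6 and Slpi sit higher.

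Of 16 acute phase and IL-1-induced secreted genes 6 were lower and 2 higher in KO, with a median of -0.13. Over the alternatives 4 to 7 were lower and 2 to 5 higher. Vcam1, an adhesion molecule for leukocytes, stood at 27.9, 22.5 and 25.7 CPM in KO, against 56, 57.2 and 60.4 CPM in WT (-1.19 ± 0.0778, adjusted p 6.02e-11). Ptges, the enzyme that makes prostaglandin E2 from its precursor, stood at 28.7, 23.7 and 27.6 CPM in KO, against 46.4, 40.2 and 40.8 CPM in WT (-0.67 ± 0.0692, adjusted p 3.3e-08). The groups were apart for both genes. Ptgs2 (cyclooxygenase-2), which makes that precursor, stood at 160, 71.7 and 122 CPM in KO, against 266, 192 and 222 CPM in WT (-0.94 ± 0.252, adjusted p 0.0188), and KO replicate 2 was its lowest library. Its call was lost without KO replicate 2 (-0.68, adjusted p 0.0854), KO replicate 3 (0.0536) or WT replicate 1 (0.0889), with DESeq2 (0.081) and in the 6 libraries alone (0.179). Slpi, a protease inhibitor that cells secrete, was higher, at 111, 86.8 and 100 CPM in KO and 58.1, 53.9 and 53.7 CPM in WT (0.85 ± 0.0942, adjusted p 2.95e-06). Saa3, an acute phase protein, did not pass, at 16500 ± 380 CPM in KO and 19700 ± 700 CPM in WT (adjusted p 0.593). In the 6 libraries alone it was called lower (0.000129), and its groups did not overlap.

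Genes of arginine use were lower where they were called, with 3 of 10 genes of arginine, nitric oxide and itaconate metabolism lower and none higher. Arg1 (arginase 1) stood at 35.7, 29.1 and 40.5 CPM in KO, against 114, 92.4 and 81.4 CPM in WT, a 2.73-fold difference without overlap (-1.45 ± 0.213, adjusted p 0.000146). Slc7a2, an arginine transporter, was 1.86-fold lower (-0.89 ± 0.156, adjusted p 0.000617), a call that was lost in the 6 libraries alone (0.0843). Nos2, the inducible nitric oxide synthase, had 441 ± 116 CPM in KO and 621 ± 86.7 CPM in WT and did not pass (adjusted p 0.252).

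**Figure D3:**
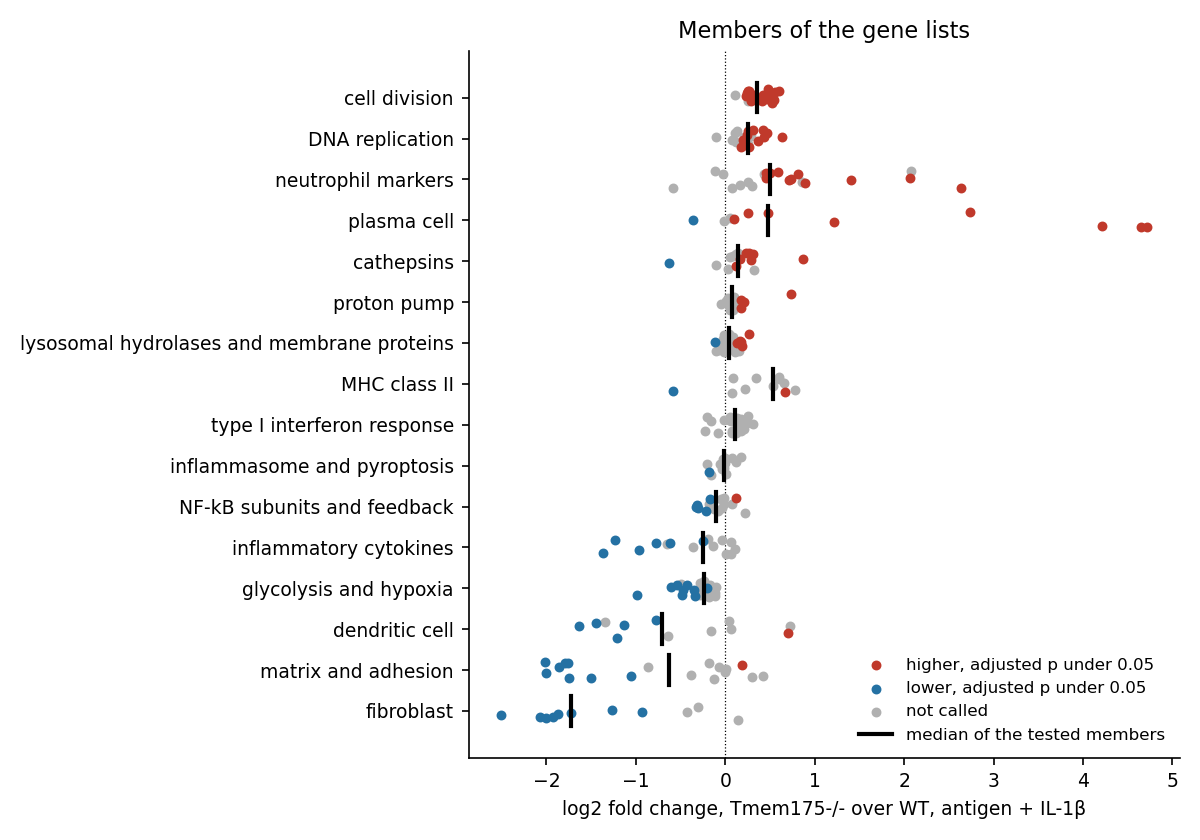
Log2 fold change of Tmem175-/- over WT for each tested member of 16 gene lists, 1 row per list, coloured by call, with a bar at the median of the tested members. Cell division genes lie to the right of 0 with a median of 0.35, and fibroblast genes to the left with a median of -1.73.

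Interferon and antigen presentation genes showed few calls. Of 22 type I interferon response genes and 20 MHC class I genes edgeR called 0 in each list and DESeq2 also 0, with 1 gene in each at an unadjusted p under 0.05. Over the alternatives at most 3 and 1 were called. Among 11 MHC class II genes the median was 0.53 and 8 lay above WT in every KO library (16.1% of all tested genes did), but only Ifi30, the lysosomal thiol reductase used in antigen processing, passed as higher, at 221, 234 and 225 CPM in KO and 146, 145 and 135 CPM in WT (0.67 ± 0.0586, adjusted p 7.38e-09). Cd74, the invariant chain, stood at 453 ± 47.8 CPM in KO and 286 ± 19.7 CPM in WT (0.66 ± 0.23, adjusted p 0.0681), but was called with DESeq2 (0.0383). When the 6 libraries were fitted alone, 8 of the 11 class II genes were called higher. The peptide editor modulator H2-Ob was lower (-0.58 ± 0.182, adjusted p 0.0314), a call lost without KO replicate 2 or 3 (0.119 and 0.106) or WT replicate 1 or 2 (0.148 and 0.101).

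Of 18 macrophage identity genes 6 were higher and 2 lower, with a median of 0.04. Lyz2, the macrophage lysozyme, stood at 8320, 7950 and 7770 CPM in KO, against 15200, 14900 and 14800 CPM in WT (-0.90 ± 0.0596, adjusted p 5.13e-10), whereas its close copy Lyz1 stood at 77.8, 74.9 and 68.8 CPM in KO, against 16.7, 15.6 and 16.1 CPM in WT (2.20 ± 0.129, adjusted p 8.21e-10). The groups were fully apart for both. How reads shared by these similar genes were assigned is not given in the sources used here. Cd14, the co-receptor for lipopolysaccharide, was 1.38-fold lower, while the lysosomal protease Ctss was 1.24-fold higher. Csf1r, the receptor for the growth factor made from Csf1, was level at 1700 ± 65.8 CPM in KO and 1670 ± 24.2 CPM in WT.

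Scavenger and endocytic receptors split, with 4 of 18 higher and 4 lower. Marco, which binds bacteria and particles, stood at 371, 379 and 378 CPM in KO, against 1650, 1580 and 1570 CPM in WT (-2.09 ± 0.119, adjusted p 1.3e-09). Cd163, the haemoglobin scavenger, stood at 0.836, 1.07 and 1.34 CPM in KO, against 4.11, 3.14 and 4.12 CPM in WT, 3.49-fold lower. Cd36, a receptor for oxidised lipid, reached 1130, 1420 and 1250 CPM in KO, against 759, 758 and 718 CPM in WT (0.77 ± 0.0881, adjusted p 6.64e-06). The mannose receptor Mrc1 and the β-glucan receptor Clec7a were higher by 0.74 and 0.53. All 5 receptors had groups without overlap. Of 16 complement genes 4 were higher and 2 lower, against 7.22% and 6.55% of all tested genes. C4b, a component of the complement cascade, stood at 37.4, 39.4 and 39.9 CPM in KO, against 12, 13.2 and 13.4 CPM in WT (1.59 ± 0.135, adjusted p 5.65e-08).

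Most lysosomal genes were not called. Of 15 lysosomal ion channel genes 3 were higher and 1 lower, Tmem175 itself. P2rx4, an ATP-gated channel found on lysosomes, was 1.17-fold higher (0.23 ± 0.0378, adjusted p 8.2e-05), at 383, 407 and 404 CPM in KO and 324, 361 and 336 CPM in WT. Tpcn2 and Clcn7, a two-pore channel and a chloride-proton exchanger, were higher by 0.19 and 0.13. The Tpcn2 call was lost without KO replicate 2 (0.16, adjusted p 0.0644) and the Clcn7 call with DESeq2 (0.0554) and without KO replicate 2 or 3 (0.122 and 0.164) or WT replicate 1 or 3 (0.193 and 0.123). Of 29 hydrolase and membrane protein genes 5 were higher and 1 lower, with a median of 0.04. Among them Gusb (β-glucuronidase) was higher by 0.19, and Psap and Lamp1 did not pass (adjusted p 0.671 and 0.0857), although Lamp1 was called higher without KO replicate 1 (0.0149).

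Of 15 cathepsin and related genes 7 were higher and 1 lower, with a median of 0.14. Ctsk, the collagen-cutting cathepsin of osteoclasts, stood at 21.9, 25.8 and 28.1 CPM in KO, against 14.5, 12.6 and 14.3 CPM in WT (0.87 ± 0.198, adjusted p 0.00623). Lgmn (legumain) was 1.17-fold and the inhibitor Cst3 1.23-fold higher, and Ctsf was 1.55-fold lower. Of 17 proton pump genes 4 were higher and none was lower, led by Atp6v0d2, the subunit found in osteoclasts and fusing macrophages, at 135, 167 and 154 CPM in KO and 85.4, 102 and 87 CPM in WT (0.73 ± 0.156, adjusted p 0.00385). Acp5 (tartrate-resistant acid phosphatase), another osteoclast gene, was 1.35-fold higher. Ctsk, Atp6v0d2 and Acp5 were the only called members among 10 tested osteoclast and fusion genes. The other 7 were not called, and log2 fold changes on that list ran from -0.52 to 2.06. In all these named genes every KO library lay on the same side of every WT library.

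Cell division genes rose together. Of 24 tested 22 were higher and none was lower, with a median of 0.35, and over the alternatives 18 to 22 were called higher. Ccna2, the cyclin of S and G2 phases, stood at 38, 37.5 and 35.2 CPM in KO, against 23, 25.2 and 25 CPM in WT (0.60 ± 0.0552, adjusted p 4.44e-09). Birc5 (survivin), Ube2c, Ccnb2, Kif11 and Cenpf, which act in mitosis, were higher by 0.56, 0.54, 0.53, 0.52 and 0.50. Mki67 was not called, at 118 ± 6.04 CPM in KO and 109 ± 2.51 CPM in WT, although its groups did not overlap. Of 20 DNA replication genes 11 were higher and none was lower, with a median of 0.25. Rrm2, a subunit of ribonucleotide reductase, stood at 35.6, 39.6 and 34.5 CPM in KO, against 22.5, 24.9 and 23.2 CPM in WT (0.63 ± 0.0858, adjusted p 9.79e-06). Tk1, of nucleotide supply, and Mcm5 and Mcm2, of the replication helicase, were higher by 0.47, 0.37 and 0.31. The summed level of the cell division list ran from 720 to 752 CPM in KO and from 575 to 605 CPM in WT.

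Neutrophil marker transcripts were higher in KO cultures. Of 21 tested 11 were higher and none was lower, with a median of 0.50, and over the alternatives 8 to 12 were called higher. Ltf (lactoferrin) stood at 5.76, 3.94 and 4.22 CPM in KO, against 0.752, 0.611 and 0.899 CPM in WT (2.63 ± 0.341, adjusted p 2.16e-05), and Ngp, a granule protein, at 48.4, 33.2 and 41.1 CPM in KO, against 14.7, 15.4 and 15.9 CPM in WT (1.41 ± 0.14, adjusted p 1.12e-06). The groups were apart in both. Elane (neutrophil elastase), Cxcr2 (the receptor for Cxcl1) and Retnlg were higher by 0.73, 0.89 and 2.06. Chil3, a chitinase-like protein of neutrophils and macrophages, was higher by 0.81, but missed the threshold in the 6 libraries alone (adjusted p 0.08). Mmp8, the neutrophil collagenase, was level at 364 ± 13.8 CPM in KO and 347 ± 8.46 CPM in WT. The summed list ran from 1600 to 1900 CPM in KO and from 1460 to 1540 CPM in WT.

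Immunoglobulin transcripts made up 0.313% to 0.563% of counts in KO libraries and 0.0118% to 0.0121% in WT libraries. Of 182 immunoglobulin genes tested 178 were higher and none was lower, with a median of 5.66. A gene could enter the test through its counts in KO cultures alone, so segments scarce in WT could hardly come out otherwise. The 178 and the median may therefore owe part of their size to the filter. Igkc, the kappa constant segment, stood at 1030, 541 and 820 CPM in KO, against 16.5, 15.6 and 13.3 CPM in WT (5.71 ± 0.264, adjusted p 1.04e-10). The heavy chain constant regions Ighg2b, Ighg2c and Ighg1 were higher by 7.18, 8.80 and 5.75. KO replicate 2 had the lowest level of each of these 4 genes among the KO libraries, still far above every WT library. How reads shared between these repeated segments were assigned is not given, so single members are uncertain.

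Plasma cell genes outside the immunoglobulin loci were higher too, 8 of 11, with 1 lower and a median of 0.48. Jchain, which links IgA and IgM units, stood at 197, 114 and 161 CPM in KO, against 5.72, 6.27 and 5.92 CPM in WT (4.72 ± 0.231, adjusted p 2.21e-10). Pou2af1, a B cell co-activator, stood at 12.5, 8.26 and 11.6 CPM in KO, against 1.35, 1.71 and 1.75 CPM in WT (2.74 ± 0.246, adjusted p 5.78e-08). The ER proteins Mzb1 and Derl3 were near absent from WT, with Mzb1 at 1.21, 0.632 and 0.876 CPM in KO, against 0, 0.0815 and 0 CPM in WT. Both are among the 8 and could enter the test through their counts in KO cultures alone. Their calls therefore carry the same limit as those of the immunoglobulin genes. The transcription factor Irf4 was 2.33-fold higher. No value of Jchain, Pou2af1 or Irf4 overlapped between the groups. B cell genes did not follow, with 4 of 14 higher and 4 lower and a median of -0.09. Log2 fold changes on that list ran from -1.53 to 1.94, so its largest rise was well above that of Cd22. Cd22 was higher by 0.34, while Spib, a B cell and plasmacytoid dendritic cell transcription factor, was lower at 0.697, 0.583 and 0.876 CPM in KO and 2.01, 2.32 and 1.89 CPM in WT (-1.53 ± 0.245, adjusted p 4.45e-05).

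T cell transcripts were scarce. Of 22 T cell genes 2 were higher and 1 lower, with a median of 0.33, and over the alternatives 1 to 5 were higher. Cd4, the helper co-receptor that some myeloid cells also carry, stood at 5.2, 5.3 and 5.56 CPM in KO, against 17.5, 17.4 and 17 CPM in WT (-1.69 ± 0.0877, adjusted p 3.09e-14). Cd8a and Cd3e did not pass (3.52 ± 0.824 CPM in KO and 2.8 ± 0.317 CPM in WT for Cd8a), although Cd8a was called higher without KO replicate 2 (0.50, adjusted p 0.0486). Il7r, the receptor for IL-7, was the clearest rise on the list, at 283, 337 and 306 CPM in KO and 188, 199 and 192 CPM in WT (0.68 ± 0.0768, adjusted p 3.07e-06). It alone made up most of the summed T cell list, 335 to 380 CPM in KO and 242 to 251 CPM in WT. Without antigen Il7r stood at 892, 923 and 905 CPM in KO_none. Which cells carried it was not tested, so its rise is not a measure of T cells.

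Killing genes gave 1 call among 11, against 13.8% of all tested genes called. Gzmb (granzyme B) stood at 39.6, 29.9 and 40.8 CPM in KO, against 29.6, 22.4 and 29 CPM in WT (0.45 ± 0.145, adjusted p 0.0479). All KO values were above all WT values, but by a small margin. The call was lost without immunoglobulin genes (adjusted p 0.0523), with no filter (0.084), in the 6 libraries alone (0.177) and without KO replicate 1 or 3 (0.134 and 0.178) or WT replicate 1, 2 or 3 (0.0593, 0.205 and 0.066). Gzma and Prf1 (perforin) did not pass, at 2.73 ± 0.564 CPM in KO and 1.69 ± 0.481 CPM in WT for Gzma and 1.81 ± 0.446 CPM in KO and 1.46 ± 0.197 CPM in WT for Prf1. Gzma was called higher with no filter (0.0107) and without KO replicate 2 (0.84, adjusted p 0.0355). Of 9 NK cell genes 1 was called and over the alternatives none or 1, again against 13.8% of all tested genes.

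Of 12 dendritic cell genes 5 were lower and 1 higher, with a median of -0.71. The higher one was the integrin gene Itgax, which the complement list also holds. It stood at 47.4, 42.4 and 41.7 CPM in KO, against 29, 24.7 and 27.7 CPM in WT. Fscn1 (fascin), which bundles actin in mature dendritic cells, stood at 5.34, 3.89 and 5 CPM in KO, against 12.9, 12.7 and 13.3 CPM in WT (-1.45 ± 0.15, adjusted p 8.45e-08). Ccr7, the receptor that guides mature dendritic cells to lymph nodes, was 1.71-fold lower, and Il4i1, an amino acid oxidase, 2.32-fold lower. Ccl22, given above, belongs to the same list. Irf8, a transcription factor of dendritic cells and macrophages, did not pass (298 ± 9.99 CPM in KO and 287 ± 4.95 CPM in WT).

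Fibroblast and matrix transcripts were lower in KO cultures and uneven between libraries. Of 11 fibroblast genes 8 were lower and none was higher, with a median of -1.73. Of 18 matrix and adhesion genes 8 were lower and 1 was higher, with a median of -0.63. Fn1 (fibronectin) stood at 18.7, 8.99 and 15 CPM in KO, against 56.3, 36.1 and 53.9 CPM in WT (-1.76 ± 0.276, adjusted p 0.000263). Col4a1, of basement membranes, stood at 3.48, 1.56 and 1.91 CPM in KO, against 9.58, 7.82 and 10.9 CPM in WT (-2.01 ± 0.323, adjusted p 0.000291). Col3a1 stood at 3.67, 1.12 and 3.3 CPM in KO, against 10.9, 7.99 and 12.3 CPM in WT (-1.93 ± 0.322, adjusted p 0.000441).

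In these 3 genes KO replicate 2 and WT replicate 2 were the lowest of their groups, and no KO library reached a WT library. The summed fibroblast list stood at 71.5, 29 and 58.9 CPM in KO, against 181, 112 and 180 CPM in WT. Postn (periostin), Timp1 (a metalloproteinase inhibitor) and Pdgfra (a growth factor receptor of fibroblasts) were lower by log2 fold changes of -2.51, -1.96 and -1.87. Tnc, Col1a2 and Ccn2 were lower by -2.02, -2.01 and -1.79, but missed the threshold in the 6 libraries alone (adjusted p 0.0739, 0.0644 and 0.0824). Sparc, Thbs2 and Col5a2, at -1.86, -2.01 and -1.79, also missed it without KO replicate 2 (adjusted p 0.0533, 0.0619 and 0.0622), Thbs2 also without WT replicate 1 (0.058) and Col5a2 without WT replicate 3 (0.051). Fibroblast markers were not at 0 in either genotype, and their part in the matrix differences was not tested. Thbs1, a matrix glycoprotein that macrophages also make, was not called, at 6180 ± 111 CPM in KO and 6490 ± 35.9 CPM in WT.

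**Figure D4:**
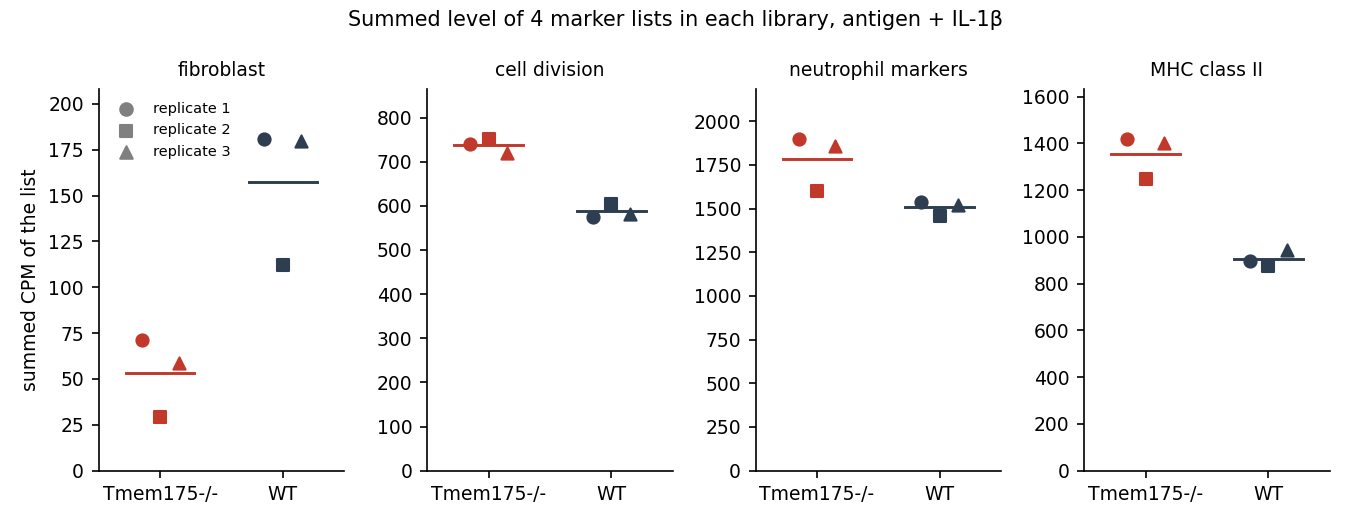
Summed CPM of the fibroblast, cell division, neutrophil and MHC class II lists in each library with antigen and IL-1β, Tmem175-/- left and WT right, marker shape for the replicate number and bars for means. Replicate 2 is lowest for the fibroblast list in both genotypes (29 and 112 CPM), while the cell division sums are tight.

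Metabolic genes changed modestly. Of 25 glycolysis and hypoxia genes 9 were lower and none was higher (median -0.24), a count that ran from 3 to 13 over the alternatives. Vegfa, the hypoxia-induced vessel growth factor, stood at 296, 282 and 304 CPM in KO, against 408, 407 and 404 CPM in WT (-0.47 ± 0.105, adjusted p 0.00564), and Ankrd37, another hypoxia target, was 1.52-fold lower. Gapdh was not called (2220 ± 203 CPM in KO and 2510 ± 106 CPM in WT), but was called lower with no filter (0.0221) and without KO replicate 1 (0.0279). Of 16 lipid efflux and LXR genes 5 were higher and 2 lower, with a median of 0.18. Plin2, which coats lipid droplets, stood at 297, 361 and 326 CPM in KO, against 200, 215 and 202 CPM in WT (0.67 ± 0.0632, adjusted p 7.39e-08), and Apoe was 1.24-fold higher. The groups were apart for all 4 called genes named here. Of 24 sterol and fatty acid synthesis genes 4 were lower and none was higher, a count that ran from 0 to 6 over the alternatives.

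Some of the largest changes fell outside these groups. Lrmda, a leucine-rich repeat gene of melanocyte differentiation, stood at 16.4, 17.5 and 17.6 CPM in KO, against 2.26, 2.16 and 2.08 CPM in WT (2.99 ± 0.115, adjusted p 2.44e-17). Bmpr1a, a receptor for bone morphogenetic proteins, stood at 30.8, 31.8 and 32.8 CPM in KO, against 7.22, 6.56 and 6.72 CPM in WT (2.22 ± 0.0731, adjusted p 8.34e-19). Gdf3, a ligand of the TGF-β family, was 3.94-fold higher, and the uncharacterised gene models Gm42047 and A530040E14Rik were 3.79-fold and 2.98-fold higher. On the lower side, Wdfy1, an endosomal adaptor of Toll-like receptors, stood at 20.5, 17.9 and 18.2 CPM in KO, against 67.2, 72.8 and 66.4 CPM in WT (-1.87 ± 0.0685, adjusted p 1.02e-17). Wdfy1 is also known to differ between C57BL/6 substrains. Of 4 genes listed for such differences it was the only 1 tested. Nnt had no symbol match, and 2 others had no counts in the 6 libraries. The strain of the mice is not given in the labels, and the part of strain background was not tested. Cyp1b1, a cytochrome P450 of steroid and xenobiotic metabolism, was 3.39-fold lower. Lack of overlap between the groups was a condition for choosing these genes, so it is no result of its own.

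The KO minus WT difference with antigen and IL-1β was then tested against the same difference in the other conditions. Against antigen alone, and against antigen with IL-18, edgeR called 0 of 14099 genes, and DESeq2 also called 0 in each. At an unadjusted p under 0.05 there were 576 and 573 genes, out of 14099. Il1b, for example, differed between the genotypes by log2 fold changes of -0.99 with antigen alone, -0.90 with IL-1β and -0.92 with IL-18, and Marco by -2.24, -2.09 and -1.90. A gene that misses this test is not shown to behave alike in the conditions, since a difference of differences carries the error of 12 libraries.

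Against the cultures without antigen, 1019 genes were called (7.23%), 509 with a more positive and 510 with a more negative KO minus WT difference. Cell division genes stood out by direction. All 24 were called, with a median KO minus WT difference of 0.35 with antigen and IL-1β and of -0.28 without antigen, and the median was 0.52 with antigen alone and 0.36 with IL-18. Ccna2 changed by 0.90 between the conditions, with 36.9 ± 1.47 CPM in KO_Ag_IL1b and 24.4 ± 1.21 CPM in WT_Ag_IL1b, but 54.7 ± 3.41 CPM in KO_none and 67.4 ± 2.51 CPM in WT_none (adjusted p 6.51e-09). Of 20 DNA replication genes 12 were called. The count over all genes was 659 without KO_none replicate 3 and 1577 without KO_none replicate 2.

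Gzmb turned as well. Its KO minus WT difference was 0.45 with antigen and IL-1β and -1.74 without antigen (difference 2.19 ± 0.216, adjusted p 9.16e-06), with 13.5 CPM in KO_none and 45 CPM in WT_none. Ltf was near level without antigen, at 123 CPM in KO_none and 103 CPM in WT_none, and 6.20-fold higher in KO with antigen and IL-1β (difference 2.38 ± 0.363, adjusted p 0.000426). Fn1 was the reverse, at 151 CPM in KO_none and 126 CPM in WT_none, and 3.40-fold lower in KO with antigen and IL-1β (difference -2.03 ± 0.346, adjusted p 0.00156). Slpi was higher in KO in both conditions but by less with antigen and IL-1β, 0.85 against 2.79 without antigen (difference -1.95 ± 0.243, adjusted p 5.79e-05). Ptch1, the receptor for hedgehog proteins, differed by -0.55 with antigen and IL-1β and 0.39 without antigen (adjusted p 5.35e-06).

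**Figure D5:**
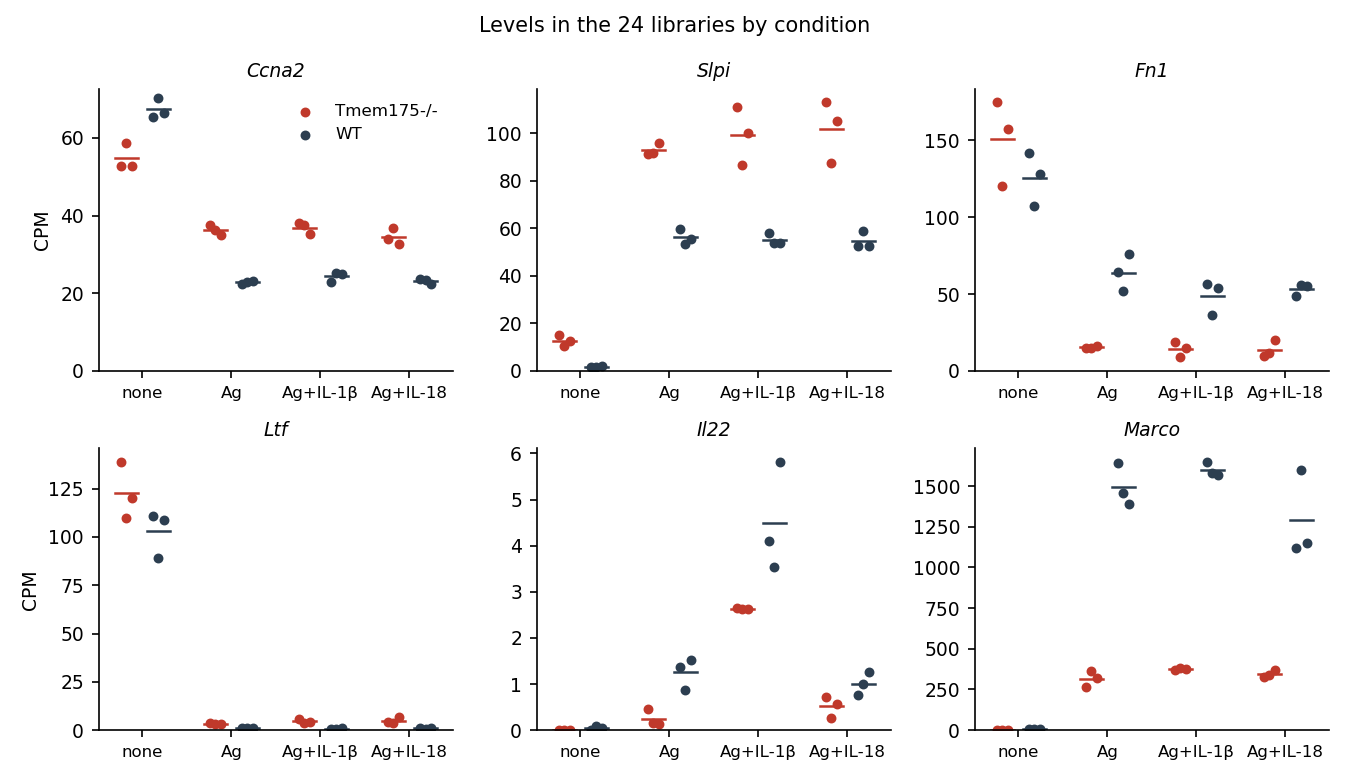
CPM of Ccna2, Slpi, Fn1, Ltf, Il22 and Marco in all 24 libraries by condition, Tmem175-/- left and WT right within each, points for libraries and bars for means. Tmem175-/- lies below WT for Ccna2 without antigen and above it in the 3 antigen conditions, and Il22 is highest with IL-1β in both genotypes.

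The number of genes that differed with IL-1β added to antigen depended on the fit. In KO cultures KO_Ag_IL1b differed from KO_Ag in 6 called genes (0.0426%), all higher, and in WT cultures WT_Ag_IL1b differed from WT_Ag in 8 (0.0567%), 4 higher and 4 lower. At an unadjusted p under 0.05 there were 1882 and 1319. DESeq2 called 55 and 10, and edgeR with no filter 287 and 79. These counts also moved with single libraries, with 284 genes in KO without KO_Ag replicate 2 and 1 without KO_Ag replicate 1, and 2 to 7 in WT with 1 library left out. Of these genes, Il22 in both genotypes and Il1a in WT kept their calls under every alternative that gave them a value.

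Il22, a cytokine of type 17 lymphocytes and innate lymphoid cells that acts on epithelia, lay below the level set for naming genes in these comparisons and was chosen after its values were seen. It stood at 2.65, 2.63 and 2.63 CPM in KO_Ag_IL1b, against 0.468, 0.149 and 0.132 CPM in KO_Ag (3.33 ± 0.366, adjusted p 2.44e-05). In WT it stood at 4.11, 3.54 and 5.82 CPM in WT_Ag_IL1b, against 1.36, 0.88 and 1.53 CPM in WT_Ag (1.85 ± 0.253, adjusted p 0.000722). Every library with IL-1β was above every library without it, in both genotypes. The responses of the genotypes did not differ detectably (1.48 ± 0.491, adjusted p 1). Between genotypes with IL-1β present, Il22 was lower in KO (-0.76 ± 0.223, adjusted p 0.021). That call was lost with DESeq2 (0.0666) and without any 1 of the KO replicates (0.0549, 0.0589 and 0.0635) or WT replicate 3 (0.181). Il1a rose with IL-1β in WT, at 65.4, 64.6 and 59.8 CPM in WT_Ag_IL1b and 47.9, 43.9 and 45.5 CPM in WT_Ag (0.47 ± 0.058, adjusted p 0.000133). In KO it stood at 44.6, 40.5 and 43.4 CPM in KO_Ag_IL1b and 34.9, 36.4 and 35.3 CPM in KO_Ag, which did not pass (0.27 ± 0.0611, adjusted p 0.134) but did without KO_Ag replicate 2 (0.032) and with no filter (0.000805), and the responses did not differ detectably (adjusted p 1).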

How the data were processed

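Polyadenylated RNA of whole co-cultures was sequenced, per the labels' protocols. The authors deposited 1 table of raw counts for 55487 Ensembl genes in 24 libraries (17744540 to 24898552 counts each). The submitters' processing notes name fastp and GRCm39. The aligner, the counting program, its strand setting and the treatment of reads shared by similar genes are not given in the sources used here, so overlapping, antisense and near-identical genes are uncertain. IDs were matched to symbols of the supplied gene name table, and those without a symbol (346) held 0.0228% of counts.

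Here, genes passing filterByExpr (14099) were scaled by TMM and fitted with edgeR 4.0.16 in R 4.3.3, with 1 coefficient per group over all 24 libraries (16 residual degrees of freedom), and tested by robust quasi-likelihood with Benjamini-Hochberg adjustment. Log2 CPM used a prior count of 2. A group mean under 3 counts per library (0.14 CPM) was treated as under the floor. The fit was tested on simulated data with planted changes. DESeq2 1.42.0 was an alternative, as were its size factors, no filter, a replicate block, the compared libraries alone, leaving out immunoglobulin genes and leaving out each library.

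Named genes are a preset group (Tmem175, IL-1 family and lymphocyte effector genes and a few more), the 12 most raised and 12 most lowered called genes without overlap at a mean of at least 2 log2 CPM, the 4 most abundant immunoglobulin genes, up to 6 called and 2 uncalled members of each of 56 lists, and up to 5 genes in each direction of the other comparisons. The chromosomal neighbours Gak and Dgkq were added after their values were seen. The comparison, the lists and this rule were chosen with earlier results of these data known. Promoter windows are from RefSeq on GRCm38.p6, an older build than that of the counts, and were joined by symbol.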

Additional observations from a re-analysis of the deposited data

Results flagged for a closer look

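The KO minus WT difference with antigen and IL-1β was tested against the same difference without antigen, and 1019 genes differed (edgeR's quasi-likelihood test, Benjamini-Hochberg adjusted p under 0.05). Of the 145 genes named in the text 38 were among them, against 7.23% of all tested genes. Most of the 145 were chosen for a KO minus WT difference with antigen and IL-1β. That difference is part of this test, so a larger share than 7.23% follows from the choice. The difference of differences was 2.38 for Ltf, 2.19 for Gzmb, 0.90 for Ccna2, -0.95 for Ptch1, -1.95 for Slpi and -2.03 for Fn1, each on the log2 scale. For Ccna2 and Gzmb, KO stood above WT with antigen and IL-1β and below WT without antigen. With 3 libraries in a group, single libraries were not screened for values far from the others.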

How the results depend on the processing

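Of 115 named genes called between the genotypes 95 kept their calls under every alternative that gave a value (of 12, and of 11 for the 4 immunoglobulin genes), and none of the 115 reversed. Of 30 named genes not called 10 gained a call under some alternative. The number of called genes stayed within 1.5 times of 1941 throughout, at 1321 to 1724 with 1 library left out (739 to 955 higher, 582 to 778 lower). Against no antigen, leaving out 1 library gave 659 to 1577 genes (321 to 861 higher, 330 to 716 lower). Against antigen alone, no filter gave 1 gene, which was higher, and leaving out 1 library gave 0 for that comparison and for IL-18.

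IL-1β within a genotype was unstable. In KO, no filter gave 287 genes (143 higher, 144 lower), the replicate block 422 (214 higher, 208 lower) and DESeq2 55 (23 higher, 32 lower), and DESeq2 size factors, leaving out immunoglobulin genes and the compared libraries alone gave 1 lower gene each. Leaving out 1 library gave 1 to 284 (1 to 128 higher, 0 to 156 lower). In WT, no filter gave 79 (40 higher, 39 lower), the replicate block 102 (54 higher, 48 lower) and the compared libraries alone 46 (28 higher, 18 lower), and leaving out 1 library gave 2 to 7 (2 to 5 higher, 0 to 3 lower). The cause was not tested. Same-numbered KO and WT libraries deviated together with correlations of 0.24, 0.39 and 0.05, against -0.37 to 0.19 for libraries with different numbers. The labels do not say what the numbers mark, so the main fit did not take them as pairs. Whether same-numbered libraries shared a source was not tested. With the replicate block 2372 genes were called between the genotypes, 1938 of them shared with the 1941. The block also called Il1r1 (0.0144), Tnf (0.0208), Lamp1 (0.0271), Gapdh (0.037) and Gzma (0.0393), adjusted p from edgeR.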

Other observations

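With antigen and IL-1β, 3 further genes were near the floor in 1 genotype and well above it in the other. They were chosen after their values were seen. Ifi208, of the interferon-inducible Ifi200 family, whose members resemble each other, stood at 19.3, 29 and 22.3 CPM in KO_Ag_IL1b, against 0.1, 0.204 and 0.189 CPM in WT_Ag_IL1b. The gene model Gm15446 stood at 17.1, 15.6 and 17.2 CPM in KO_Ag_IL1b, against 0.1, 0.0815 and 0 CPM in WT_Ag_IL1b. The gene model Gm42031 ran the other way, at 0.139, 0.0486 and 0.103 CPM in KO_Ag_IL1b, against 9.93, 9.7 and 12.3 CPM in WT_Ag_IL1b. How reads shared with similar genes were assigned is not given for these genes.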
